A study of Mus musculus with 4 samples.

Results

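The genes described here carry the step at which growth signals let a cell enter the division cycle. They are 3 D-type cyclins (Ccnd1, Ccnd2 and Ccnd3), their kinases Cdk4 and Cdk6, the inhibitors Cdkn1b (p27) and Cdkn2c (p18), the retinoblastoma gene Rb1, and E2f1, a transcription factor that the Rb protein restrains. They were chosen by symbol, and all 9 are among the 31054 features of each of the 4 count matrices. RNA was counted as UMIs (unique molecular identifiers, 1 per captured molecule) in single intestinal epithelial cells of Bmi1-GFP mice, a reporter genotype that marks cells transcribing the Bmi1 locus. The groups are embryos of day 12.5 (E12.5) and of day 17.5 (E17.5), adults and irradiated adults, with 1 library of sorted cells each. All 4 carry the same genotype, and the study's design text says that Bmi1-expressing cells were sorted. The labels give irradiation in a title only, without dose or time after exposure, and do not give the number of animals or the sort gates. Since each group is a single library, groups were not tested against each other, and the 95% intervals below cover counting error only.

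D cyclins are made in response to mitogens and bind Cdk4 or Cdk6. The complexes phosphorylate the Rb protein, which then releases E2F factors, and these switch on genes of DNA replication. Proteins of the INK4 family such as p18 bind Cdk4 and Cdk6 directly, while p27 binds assembled cyclin and kinase complexes. In the adult intestine cells divide in the crypt and leave the cycle as they become enterocytes or secretory cells, among them hormone-releasing enteroendocrine cells, chemosensory tuft cells, mucus-making goblet cells and antimicrobial Paneth cells.

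All 9 genes are protein-coding and were placed by their Ensembl IDs in GENCODE M21 on GRCm38. Ccnd1 lies at chr7:144929931-144939925 on the minus strand, Ccnd2 at chr6:127125162-127152193 on the minus strand and Ccnd3 at chr17:47505051-47599691 on the plus strand. Cdk4 lies at chr10:127063534-127067920 and Cdk6 at chr5:3341485-3531008, both on the plus strand. Cdkn1b lies at chr6:134920401-134925513 on the plus strand and Cdkn2c at chr4:109660876-109667189 on the minus strand. Rb1 lies at chr14:73183673-73325822 and E2f1 at chr2:154559407-154569892, both on the minus strand. Cdk4 overlaps Tspan31, Ccnd3 overlaps Bysl, and Rb1 overlaps Rcbtb2 and Lpar6, each on the opposite strand, and the strand setting of the counting is not given in the sources used here.

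The kinase genes Cdk4 and Cdk6 were ordered differently across the libraries, so the sequence before each start is shown. RefSeq promoter entries (GRCm38.p6) matched 6 of the 9 genes. The windows run 5′ to 3′ on the plus strand over 240 bases, from 250 to 11 bases before the annotated start, at chr10:127063285-127063524 for Cdk4 and chr5:3343643-3343882 for Cdk6, whose RefSeq start lies inside the GENCODE gene. Capitals mark matches, on either strand, to the motifs searched, none of which overlapped. Searched were the E-box with the letters CACGTG, bound by Myc and related factors, and the GC box with the letters GGGCGG, bound by Sp1 and its relatives. The CCAAT box and 2 motifs of E2F factors, TTTCGCGC and TTTGGCGC, were searched as well.
Cdk4: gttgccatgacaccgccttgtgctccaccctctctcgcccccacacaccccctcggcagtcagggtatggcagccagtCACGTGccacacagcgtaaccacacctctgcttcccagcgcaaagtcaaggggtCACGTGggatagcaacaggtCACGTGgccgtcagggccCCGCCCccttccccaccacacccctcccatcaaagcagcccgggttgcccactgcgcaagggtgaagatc
Cdk6: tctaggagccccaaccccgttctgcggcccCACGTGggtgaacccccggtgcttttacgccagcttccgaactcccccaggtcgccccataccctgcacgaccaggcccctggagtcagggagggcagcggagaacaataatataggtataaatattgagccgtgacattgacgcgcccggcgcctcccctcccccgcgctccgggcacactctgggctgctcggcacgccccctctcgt
The Cdk4 window held the E-box at 3 places, beginning 172, 118 and 98 bases before the start, and 1 GC box. The Cdk6 window held 1 E-box, beginning 220 bases before the start, and no GC box. Of 32851 promoter windows of this length in the table, 5.69% held at least 1 E-box, 19 held 3 or more, and 31.3% held a GC box. The E2F motifs TTTCGCGC and TTTGGCGC were in 0.240% and 0.396% of windows and in neither kinase window, and neither held a CCAAT box, which was in 33.0% of windows. The windows of Cdk4 and Cdk6 were 64.6% and 65.4% G and C. These are matches of letters and were not tested as binding sites.

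After filtering, between 3031 and 4409 cells per library were kept, with median UMIs per cell of 18098 (E12.5), 10994 (E17.5), 3606 (adult) and 8547 (irradiated). Between 6 and 12 barcodes were shared by any pair of libraries. Clusters were built without the 9 genes and called, for example, enteroendocrine-like from marker genes. Of the 4409 cells at E17.5, 3476 were epithelial, and clusters named acinar-like, islet-like, mesenchymal-like, smooth muscle-like or mesothelial-like were left out. An unnamed cluster of 112 cells with islet hormone genes among its leading genes was kept. At E12.5 no cluster was named so, and all 4050 cells were kept as epithelial. They include unnamed clusters of 53 cells led by Acta2 with Col3a1, 139 led by Spp1, Cpa1 and Clps, and 135 led by Ttr and Rbp4. The E12.5 and E17.5 sets thus differ in what was left out. Enteroendocrine-like cells numbered 0 (E12.5), 1394 (E17.5), 2224 (adult) and 2392 (irradiated), and tuft-like cells numbered 975 and 289 in the adult libraries. In the epithelial cells all 9 general epithelial markers, such as Epcam and Cdh1, were detected in each library, with a summed level between 3807 and 11835 counts per 1000000 UMIs, against between 0.547 and 75.6 for 7 immune markers and between 0.538 and 13.5 for 7 mesenchymal ones. The immune sum was highest in the adult, and its part in the results was not tested. Because the libraries differ in makeup, levels are given for all epithelial cells and for those outside the enteroendocrine-like and tuft-like classes. The latter population holds 4050, 2082, 398 and 350 cells. Levels are counts per 1000000 UMIs (CPM) of molecules summed over cells, which give cells with more UMIs more weight, and are not scaled by gene length, so that differences between genes are differences in captured molecules.

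Ccnd2 was the most abundant D cyclin in the epithelium of all 4 libraries. Its level over all epithelial cells was 305 CPM at E12.5, 315 at E17.5, 216 in adult cells and 469 after irradiation (95% interval 461.8 to 475.5). Over all epithelial cells its share of D-cyclin UMIs was 56.6% at E12.5, 66.2% at E17.5, 73.4% in adult cells and 79.4% after irradiation. The 4 intervals did not overlap. Ccnd3 went the other way, with 25.9%, 20.8%, 11.3% and 7.71% of D-cyclin UMIs. Its level was 140 CPM at E12.5, 99.1 at E17.5, 33.2 in adult cells and 45.5 after irradiation. Ccnd1, the D cyclin linked to Wnt and Ras signalling, was at 94.0, 62.2, 45.2 and 76.1 CPM in the same order. Its share of D-cyclin UMIs stayed between 12.9% and 17.4%. With each cell given equal weight the mean Ccnd1 level was 89.7, 55.5, 15.2 and 34.0 CPM, so the adult levels rest on cells with many UMIs.

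**Figure D1:**
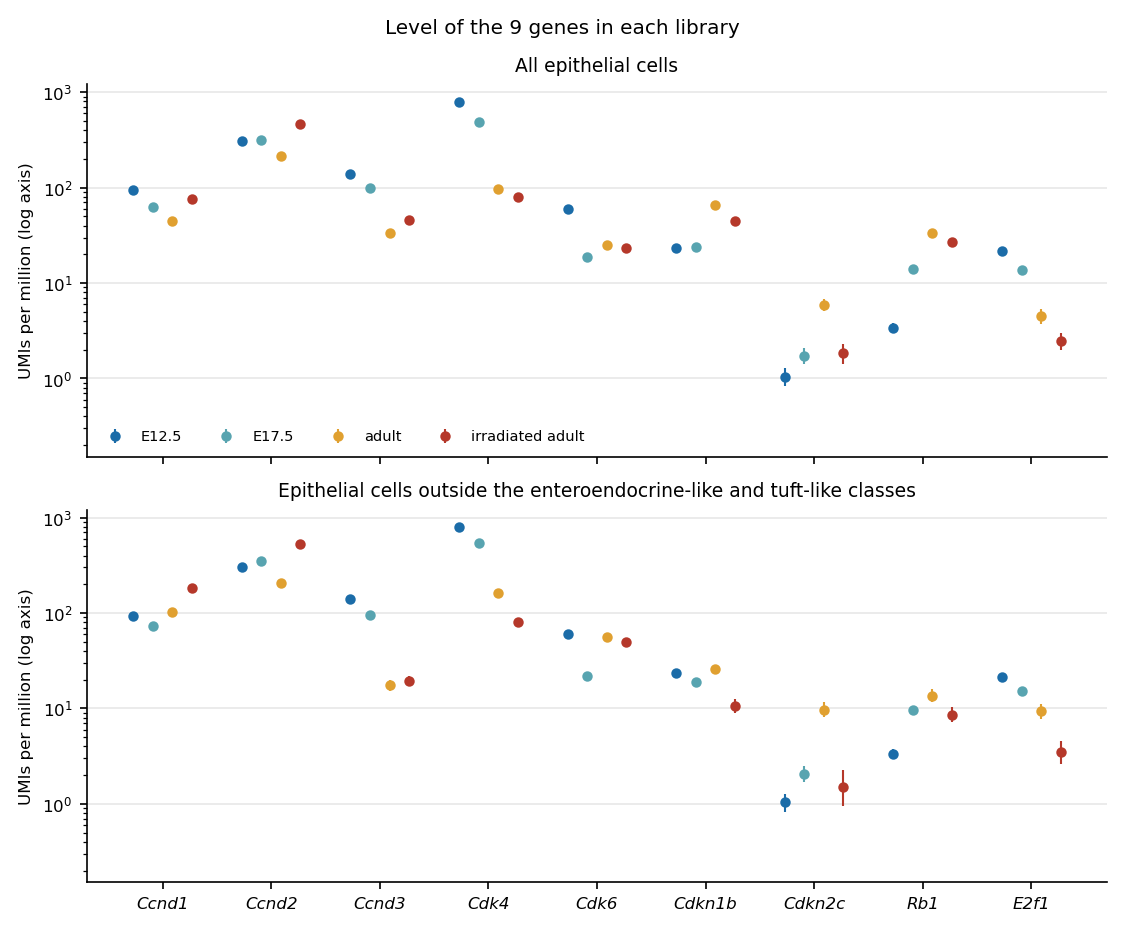
Level of each gene in CPM (log axis) in the 4 libraries, over all epithelial cells (top) and outside the enteroendocrine-like and tuft-like classes (bottom); points are summed counts and bars exact Poisson 95% intervals. Cdk4 goes from 794 at E12.5 to 78.8 after irradiation in the top panel, while Rb1 goes from 3.37 to 26.6.

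Outside the enteroendocrine-like and tuft-like classes the order of the Ccnd1 levels differed from that over all epithelial cells. There Ccnd1 was at 94.0 CPM at E12.5, 73.4 at E17.5, 102 in adult cells and 184 after irradiation, so that the adult libraries stood above the embryonic ones. This order rests largely on a Ccnd1-rich cluster in each adult library, both described below. A general epithelial cluster of 127 cells held 52.2% of the adult UMIs, and an enterocyte-like cluster of 100 cells 36.0% of the irradiated ones. In the adult Paneth-like clusters Ccnd1 was at only 22.3 and 61.1 CPM. Ccnd2 was at 305, 350, 205.5 and 523 CPM in the same population. Of its 6439 adult UMIs over all epithelial cells, 3837 were in enteroendocrine-like cells, so its adult share above rests largely on that class. Ccnd3 was at 140, 94.6, 17.5 and 19.5 CPM, and its adult and irradiated intervals overlapped. Ccnd1 was scarce in the hormone-bearing and tuft-like cells that fill the adult libraries. In enteroendocrine-like cells it was at 7.73 CPM at E17.5, 5.72 in adult cells and 11.2 after irradiation, and in tuft-like cells at 3.03 (95% interval 1.66 to 5.09) and 5.13 (2.21 to 10.1) in the adult libraries. Without 1 irradiated enteroendocrine-like cluster of 236 cells, which had a median of 1151.5 UMIs and was singled out after the values were seen, the irradiated enteroendocrine-like level was 10.4 CPM.

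**Figure D2:**
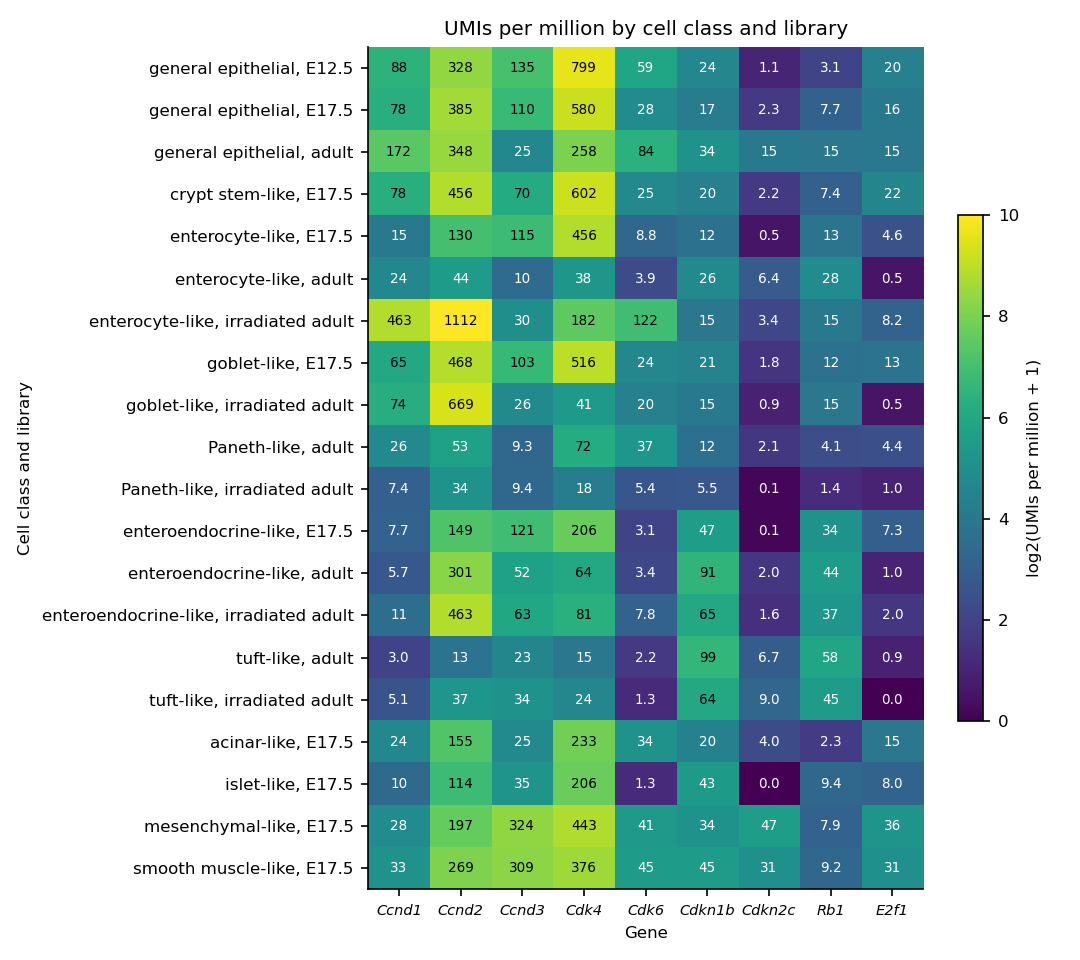
CPM of the 9 genes (columns) in each named cell class and library (rows); numbers are levels and colour is log2(CPM + 1). Ccnd2 is highest at 1112 in the irradiated enterocyte-like row, a cluster with Ccnd1 and Ube2c among its leading genes. Cdkn2c is highest in the E17.5 mesenchymal-like row at 47.4.

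Within the enteroendocrine-like cells Ccnd2 levels were split by Tph1. Clusters with at least 1000 CPM of Tph1, the serotonin-synthesis enzyme of enterochromaffin cells, numbered 2 (E17.5), 2 (adult) and 4 (irradiated), a grouping chosen after the values were seen. In them Ccnd2 was at 284 and 472 CPM at E17.5, at 609 and 1016 in adult cells, and between 690 and 1165 after irradiation. The other clusters ranged from 33.1 to 240 CPM at E17.5 (6 clusters), from 22.7 to 37.5 in the adult (5 clusters) and from 23.7 to 428 after irradiation (8 clusters). The ranges of these cluster levels did not overlap between the 2 kinds in any of the 3 libraries. At E17.5, though, the intervals of the nearest clusters overlapped. The cluster at 284 CPM had 251.5 to 320.1, and an Sst-led cluster without Tph1 UMIs, at 240, had 205.5 to 278.9. Nor did Ccnd2 follow Tph1 among the other E17.5 clusters, since those with 350.5 and 152.9 CPM of Tph1 had Ccnd2 at 67.2 and 33.1. The 428 CPM belong to the cluster of 236 cells named above, and the next highest of those 8, a cluster led by Gcg, the proglucagon gene, was at 269.

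The same held when single cells were sorted by a Tph1 UMI instead of by cluster. In the adult, Ccnd2 was at 699 CPM (95% interval 676 to 722) in the 713 enteroendocrine-like cells with a Tph1 UMI once 2000 UMIs were drawn at random from each cell (thinning), and at 28.7 (24.8 to 33.0) in the 1024 without. After irradiation the levels were 751 in 1135 cells with a Tph1 UMI and 125 in 891 without. At E17.5 they were 256 in 383 cells and 112 in 975. The difference was present in each library and smallest at E17.5. By share of thinned cells, 54.6% of adult Tph1-bearing cells had a Ccnd2 UMI, against 5.96% of the other enteroendocrine-like cells and 3.104% of tuft-like cells, at median depths of 5580, 3449 and 4114 UMIs. Droplets can also carry free RNA, and no class is known to lack Ccnd2, so the tuft-like share stands as the lowest reference. Ccnd3 showed a smaller difference of the same direction, 70.8 against 41.4 CPM in the adult and 82.4 against 40.6 after irradiation. Ccnd1 was lower in the Tph1-bearing cells, at 3.345 against 6.63 CPM in the adult with intervals that overlapped, and at 6.635 against 15.8 after irradiation.

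**Figure D3:**
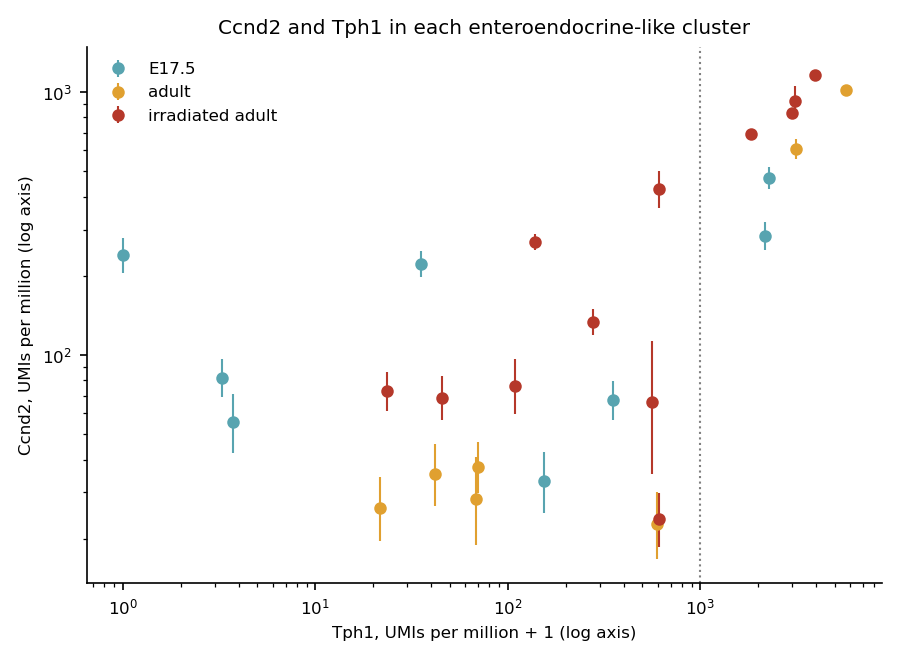
Ccnd2 against Tph1 (both in CPM, log axes; 1 is added to Tph1) in each enteroendocrine-like cluster of the E17.5, adult and irradiated libraries, with Poisson 95% intervals for Ccnd2; the dotted line marks 1000 CPM of Tph1. The 8 clusters right of the line lie between 284 and 1165, and the adult clusters left of it lie between 22.7 and 37.5.

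Ccnd1 and Ccnd2 also peaked in different clusters of the embryonic libraries. Among the 14 clusters at E12.5 Ccnd1 ranged from 35.8 to 445 CPM with a median of 75.6. The highest was a cluster of 139 cells led by Spp1, Cpa1 and Clps, with Pdx1 and Nkx6-1, which encode transcription factors of the early pancreas, among its leading genes. At E17.5 the highest Ccnd1 level was 730 CPM (95% interval 678 to 784), in an unnamed cluster of 81 cells that was also led by Spp1. Ccnd2 in these clusters was at 265 and 142 CPM, below Ccnd1 in each. Ccnd2 at E12.5 was highest, at 1017 CPM, in a cluster of 41 cells with Gkn3 and Nkx6-3 among its leading genes, where Ccnd1 was at 69.4. These are clusters against the rest of their own libraries and carry no test.

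Cdk4 was far higher in the embryonic than in the adult libraries. It was at 794 CPM at E12.5, 488 at E17.5, 97.8 in adult cells and 78.8 after irradiation (95% interval 76.0 to 81.6). In cells thinned to 2000 UMIs, 79.3% of epithelial cells had a Cdk4 UMI at E12.5, 52.0% at E17.5, 9.59% in adult cells and 13.8% after irradiation, against 89.1%, 84.35%, 23.5% and 43.1% without thinning. The share of cells and the CPM therefore place the adult libraries in opposite order, and no order between those 2 is read from either. Outside the enteroendocrine-like and tuft-like classes Cdk4 was at 794, 546, 163 and 81.3 CPM, and there the irradiated and adult intervals did not overlap. At E12.5 the level varied little between clusters, from 506 to 842 CPM over 14 clusters. At E17.5 it was 602 CPM in crypt stem-like cells, 516.5 in goblet-like cells, 456.5 in enterocyte-like cells and 206 in enteroendocrine-like cells. In the adult it was 257.5 CPM in the 127 general epithelial cells, a cluster led by Mki67 and Top2a, against 64.4 in enteroendocrine-like and 14.7 in tuft-like cells.

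Cdk6 did not follow Cdk4. It was at 59.8 CPM at E12.5, 18.8 at E17.5, 25.1 in adult cells and 23.5 after irradiation, and the last 2 intervals overlapped. Its share of Cdk4 and Cdk6 UMIs was 7.003% at E12.5, 3.71% at E17.5, 20.4% in adult cells and 23.0% after irradiation. Outside the enteroendocrine-like and tuft-like classes the share was 25.5% in the adult and 38.1% (95% interval 35.9 to 40.3) after irradiation. There the Cdk6 level was 59.8 CPM at E12.5, 22.0 at E17.5, 56.0 in adult cells and 50.03 after irradiation, so that E17.5 alone stood low. Cdk6 was scarce in enteroendocrine-like cells, at 3.11, 3.45 and 7.80 CPM from E17.5 to the irradiated adult, and Cdk4 made up at least 91.2% of the kinase UMIs of that class in all 3 libraries.

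**Figure D4:**
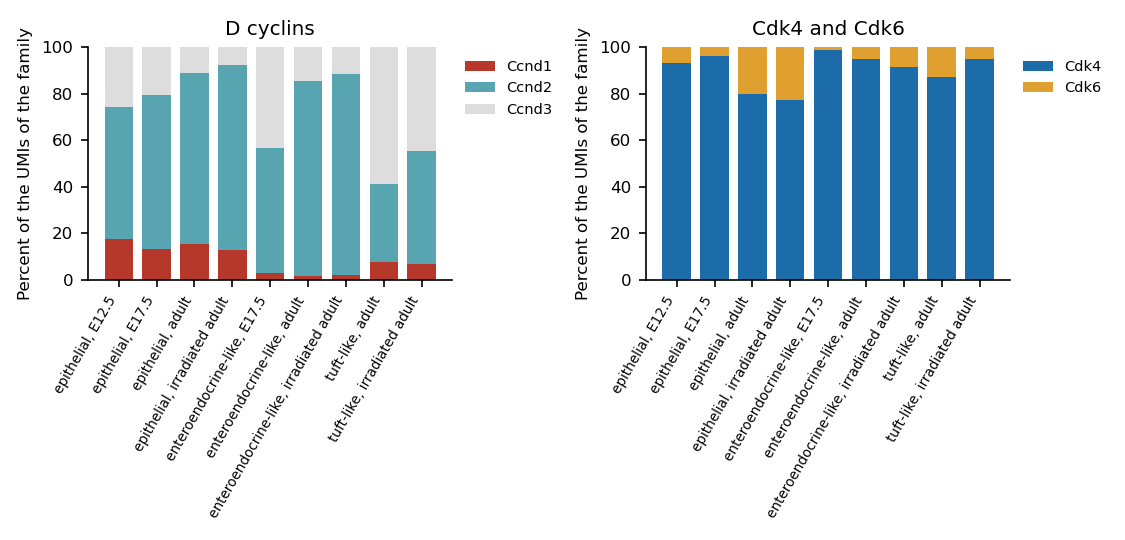
Percent of D-cyclin UMIs (left) and of Cdk4 and Cdk6 UMIs (right) held by each gene, over all epithelial cells and in the enteroendocrine-like and tuft-like classes of the libraries that hold them; bars are stacked from 0 to 100%. Ccnd2 makes up 83.9% of D-cyclin UMIs in adult enteroendocrine-like cells and 33.5% in adult tuft-like cells, where Ccnd3 makes up 58.8%.

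The inhibitor Cdkn1b was highest, in the adult libraries, in tuft-like and enteroendocrine-like cells. Over all epithelial cells it was at 23.5 CPM at E12.5, 23.6 at E17.5, 65.2 in adult cells and 44.4 after irradiation. The embryonic intervals overlapped. Tuft-like cells had 98.7 CPM in the adult and 64.1 after irradiation, and enteroendocrine-like cells had 47.3 at E17.5, 91.4 in adult cells and 65.0 after irradiation. Outside these classes Cdkn1b was at 23.5, 18.7, 25.6 and 10.7 CPM. In thinned tuft-like cells of the adult, 17.4% had a Cdkn1b UMI and no D-cyclin UMI, and 6.87% had any D-cyclin UMI. In thinned E12.5 cells these shares were 2.01% and 59.6%.

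Cdkn2c was the rarest of the genes over the epithelial cells of all libraries but the adult, where E2f1 was lower. It was at 1.03 CPM at E12.5, 1.72 at E17.5, 5.92 in adult cells and 1.83 after irradiation (95% interval 1.43 to 2.31). Its highest epithelial level in a named class was 15.3 CPM in the adult general epithelial cells led by Mki67. Among the E17.5 cells left out as non-epithelial it was at 47.4 CPM (33.2 to 65.6) in mesenchymal-like and 31.1 (20.5 to 45.2) in smooth muscle-like cells, but at 4.03 in acinar-like cells, and no UMI was found in 140 islet-like cells. The mesenchymal-like and smooth muscle-like cells also had more Ccnd3 than any named epithelial class of the E17.5 library, 324 and 309 CPM. In E17.5 enteroendocrine-like cells 1 Cdkn2c UMI was found in 1394 cells.

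Over all epithelial cells Rb1 and E2f1 ran in opposite order from E12.5 to the adult, and both were lower after irradiation. Rb1 was at 3.37 CPM at E12.5, 13.9 at E17.5, 33.7 in adult cells and 26.6 after irradiation, and E2f1 was at 21.5, 13.9, 4.47 and 2.48 CPM. The intervals of neighbouring libraries did not overlap for either gene. Rb1 was highest in tuft-like cells, at 57.6 CPM in the adult and 44.8 after irradiation, and in enteroendocrine-like cells, at 34.4, 44.5 and 37.1 CPM from E17.5 on. Outside those classes it was at 3.37, 9.655, 13.6 and 8.61 CPM. E2f1 was at 7.25 CPM in E17.5 enteroendocrine-like cells, 1.02 in adult ones (13 UMIs) and 1.99 after irradiation (45 UMIs). No E2f1 UMI was found in the 289 irradiated tuft-like cells, where 3 UMIs would make 1.92 CPM, and the adult tuft-like level was 0.866. At E17.5 E2f1 was highest among the named epithelial classes in crypt stem-like cells at 22.4 CPM.

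Cells were called cycling by at least 3 UMIs of 15 G2/M genes, none of them among the 9, after thinning to 2000 UMIs. Cells in other phases of the cycle can thus count as non-cycling. Cells called cycling made up 58.9% of epithelial cells at E12.5, 27.9% at E17.5, 3.15% in adult cells and 1.26% after irradiation. Outside the enteroendocrine-like and tuft-like classes the shares were 47.0% at E17.5, 29.3% in adult cells and 7.75% after irradiation, the last from 22 of 284 cells. Levels below compare these cells with the others of that population within each library.

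At E12.5 none of the D cyclins and kinases differed by more than 0.29 (log2) between cycling and non-cycling cells. Ccnd1 was at 87.3 CPM in cycling and 107 in non-cycling cells, Ccnd2 at 294 and 322, and Cdk4 at 801 and 789 with intervals that overlapped. In the adult all 3 were higher in the cycling cells, Ccnd1 at 172 against 58.4 CPM, Ccnd2 at 332 against 126 and Cdk4 at 257 against 105. Cdk6 was at 87.2 against 36.4 CPM there, and Cdkn2c at 17.7 against 4.88. After irradiation Cdk4 was at 257 against 62.2 CPM and Ccnd1 at 423 against 158. The population includes 212 Paneth-like cells in the adult and 90 Paneth-like and 86 goblet-like cells after irradiation. Without those classes, a choice made after the values were seen, the adult log2 ratios were 0.94 for Ccnd1, 0.81 for Ccnd2 and 0.92 for Cdk4. After irradiation Cdk4 was at 0.74, while Ccnd1 stood at 423 against 474.5 CPM with intervals that overlapped and Ccnd2 was lower in the cycling cells, at 710 against 1252. The contrasts also move with the depth to which cells were thinned: the adult log2 ratio of Cdk4 was 0.77 at 1000 UMIs, 1.29 at 2000 and 1.69 at 4000.

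E2f1 was lower in cells with G2/M transcripts at E12.5, at 17.9 against 28.2 CPM (log2 ratio -0.62). Marked instead by at least 3 UMIs of 16 replication genes that E2F factors switch on, such as Mcm5 and Rrm2, the cycling cells had more E2f1, with a log2 ratio of 0.65. At E17.5 the values were 0.14 by G2/M genes and 1.43 by replication genes, and in the adult 0.79 and 1.55. Ccne1, the cyclin that follows the D cyclins and is a known E2F target, was likewise lower in G2/M cells at E12.5, at 48.3 against 80.6 CPM. In the adult Ccne1 was higher in them, at 13.25 against 5.01. Rb1 at E12.5 was at 2.68 against 4.55 CPM.

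**Figure D5:**
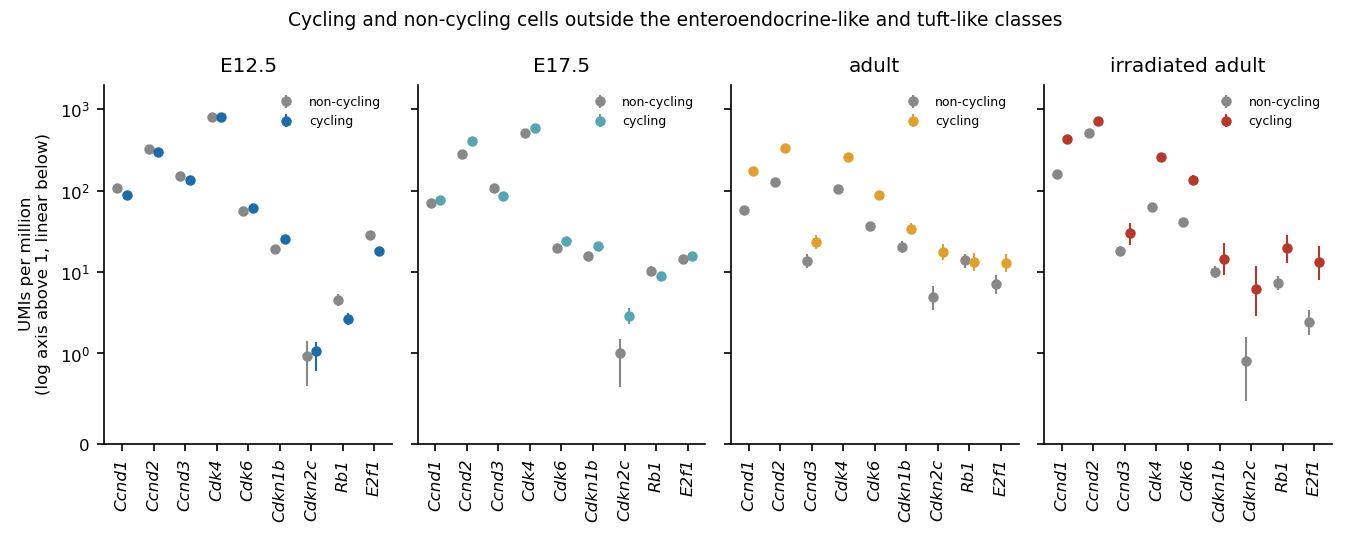
CPM of the 9 genes in cycling (coloured) and non-cycling (grey) cells outside the enteroendocrine-like and tuft-like classes, 1 panel per library, with Poisson 95% intervals; the axis is logarithmic above 1 and linear below. At E12.5 Cdk4 is at 801 and 789, while in the irradiated adult it is at 257 and 62.2.

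Differences between libraries were read as log2((CPM + 1)/(CPM + 1)) and set beside every gene that reached 50 UMIs in 1 of the 2 libraries. Over all epithelial cells, 1 of the 9 genes was at least 2-fold higher at E17.5 than at E12.5, Rb1 (1.77), against 15.4% of 14208 genes, and 1 was at least 2-fold lower, Cdk6 (-1.62), against 17.2%. From E17.5 to the adult 3 of 9 were at least 2-fold higher, Cdkn1b (1.43), Cdkn2c (1.35) and Rb1 (1.22), against 14.6% of genes, and 3 were lower, Cdk4 (-2.31), Ccnd3 (-1.55) and E2f1 (-1.44), against 15%. After irradiation 1 of 9 was higher than in the adult, Ccnd2 (1.11), against 3.05% of genes, and 1 was lower, Cdkn2c (-1.29), against 5.35%. In the E17.5 to adult comparison both inhibitors and Rb1 were thus on the higher side and a kinase, a D cyclin and E2f1 on the lower. The median over the 9 genes was -0.493, -0.452 and -0.308 in the 3 comparisons, beside -0.217, -0.0937 and -0.0409 over all genes tested. The 3 comparisons share libraries pairwise and are not independent of each other.

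Outside the enteroendocrine-like and tuft-like classes the lists were not the same. At E17.5 Rb1 (1.29) was higher and Cdk6 (-1.40) lower, against 12.9% and 20.4% of genes. In the adult Cdk6 (1.31) and Cdkn2c (1.81) were at least 2-fold higher than at E17.5, against 5.11% of genes, and Ccnd3 (-2.37) and Cdk4 (-1.74) were lower, against 16.4%. Cdkn1b (0.43) and Rb1 (0.45), higher over all epithelial cells, were within 2-fold here. After irradiation Ccnd2 (1.34) was higher, against 6.60% of genes, and Cdkn1b (-1.19), Cdkn2c (-2.10) and E2f1 (-1.21) were lower, against 16.5%, while Cdk4 stood at -0.997, just inside 2-fold.

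Within the enteroendocrine-like class, the comparison from E17.5 to the adult had 1 of the 7 genes with at least 50 UMIs at least 2-fold higher, Ccnd2 (1.01), against 11.6% of genes. Cells with a Tph1 UMI were 383 of 1358 at E17.5 and 713 of 1737 in the adult. Their Ccnd2 level was 256 CPM at E17.5 and 698.5 in the adult, while in the cells without one it was 112 and 28.7. Ccnd3 (-1.20), Cdk4 (-1.66) and E2f1 (-2.03) were lower, against 9.06%, and Cdkn1b was at 0.94. After irradiation none of the 7 genes with at least 50 UMIs in this class passed 2-fold, against 2.70% of genes higher and 2.46% lower. The nearest were Cdk6 (0.98) and Ccnd1 (0.86), at 7.80 against 3.45 and 11.2 against 5.72 CPM. Ccnd2 was at 0.62 over the whole class. In its cells without a Tph1 UMI, Ccnd2 was at 125 CPM after irradiation and 28.7 in the adult. With a Tph1 UMI it was at 751 and 698.5 CPM. The clusters poor in Tph1 also differed in makeup. A Gcg-led irradiated cluster was at 269 CPM, and no adult cluster was led by Gcg. The irradiated Cck-led cluster was at 23.7 CPM beside 22.7 in the adult Nts-led one, and the Sst-led clusters at 68.9 and 28.4. How far makeup and level each enter was not tested. In tuft-like cells Ccnd2 was at 37.2 CPM after irradiation (95% interval 28.2 to 48.0) and 13.2 (10.1 to 16.96) before, a log2 ratio of 1.425, against 1.64% of genes at least 2-fold higher. No member with at least 50 UMIs was that much lower there, against 1.49% of genes. These tuft-like values rest on 58 and 61 UMIs.

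The irradiated library held a cluster of 100 cells in which Ccnd1 and Ccnd2 were both high. Its leading genes were Apoa4, Ccnd1, Ces2e and Prap1, with Ube2c, a G2/M gene, and 22.9% of its thinned cells were cycling. Ccnd2 was at 1112 CPM (95% interval 1084 to 1141), Ccnd1 at 463 (445 to 482) and Cdk6 at 122 (113 to 132). In the adult cluster of 127 cells led by Mki67, with 62.5% of thinned cells cycling, they were at 348, 172 and 83.8 CPM. Cdk4, by contrast, was at 182 CPM in the irradiated and 257.5 in the adult cluster, E2f1 at 8.16 and 15.2, and Cdkn2c at 3.42 and 15.3. A second irradiated cluster of 74 cells, led by Ly6d and Clu and with a median of 1899 UMIs, had Ccnd2 at 615 (491 to 760) and Ccnd1 at 246 (170 to 344). The cluster of 100 cells was called enterocyte-like at a marker score of 0.54, against 0.904 for the 59 adult enterocyte-like cells. Apoa4 was the only listed enterocyte marker among its leading genes, so the shared name is weaker for the irradiated cluster. The 59 adult cells had Ccnd1 at 24.45 and Ccnd2 at 44.5 CPM.

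Leaving out Paneth-like and goblet-like cells as well, a population chosen after the values were seen, left 186 adult and 174 irradiated cells. The irradiated ones are the clusters of 100 and 74 cells above, with 36.0% and 0.945% of UMIs before those classes were left out. The adult ones are the cluster of 127 cells and the 59 enterocyte-like cells, with 52.2% and 16.5%. The irradiated values here thus largely restate the cluster of 100 cells. Ccnd1 was then at 458 CPM after irradiation and 136 in the adult (log2 ratio 1.74), and Ccnd2 at a log2 ratio of 2.00, against 8.90% of genes at least 2-fold higher. Cdkn1b (-1.01) and Cdkn2c (-1.65) were at least 2-fold lower, against 7.91% of genes, and E2f1 was within 2-fold (-0.50). Cdk6 was at 0.89 in this population and -0.16 with the Paneth-like and goblet-like cells in. Paneth-like cells supplied 48.0% of the UMIs of the wider irradiated population and 31.25% of the adult one. In thinned cells of the wider population, UMIs of Ccnd1 and Ccnd2 were found together in 17.96% of irradiated cells (95% interval 13.7 to 22.9) and 5.79% of adult cells (3.47 to 8.99).

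Other genes of the pathway were taken from 9 lists. Counts are first given over all epithelial cells, where 17.2%, 15% and 5.35% of all genes were at least 2-fold lower in the 3 comparisons. With enteroendocrine-like and tuft-like cells left out those shares were 20.4%, 16.4% and 16.5%. Without Paneth-like and goblet-like cells as well, they were 10.9% in the adult and 7.91% after irradiation. Of 16 replication genes that E2F factors switch on, 10 were at least 2-fold lower at E17.5 than at E12.5, 16 lower in the adult than at E17.5 and 10 lower after irradiation, with none at least 2-fold higher in any comparison. Their medians were -1.15, -1.32 and -1.22, against the medians over all genes given above. With enteroendocrine-like and tuft-like cells left out, 6, 2 and 14 of them were lower. Without Paneth-like and goblet-like cells as well, none of the 16 was lower in the adult and 3 were lower after irradiation, so these counts differ with the cells included. Mcm3, a subunit of the replicative helicase, was at 156 CPM at E12.5 and 51.4 at E17.5. Of 15 G2/M genes, 4, 14 and 15 were lower in the 3 comparisons and none at least 2-fold higher. Without enteroendocrine-like and tuft-like cells 3, 8 and 15 were lower, and without Paneth-like and goblet-like cells as well none was lower in the adult and 8 after irradiation. Of 7 genes of cyclin E, cyclin A, Cdk2 and their regulators, 4, 5 and 2 were lower and none at least 2-fold higher. In the same narrower populations 3, 5 and 3 were lower without the first 2 classes, and 2 of 7 in the adult and 1 of 6 measured after irradiation without all 4. Skp2, whose product targets p27 for destruction, was at 69.3 CPM at E12.5 and 18.5 at E17.5.

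Among the other CDK inhibitors, 1 of 5 passed 2-fold at E17.5, 1 of 5 in the adult and 1 of 4 with enough UMIs after irradiation. Cdkn2b (p15) was higher at E17.5, at 44.7 against 2.25 CPM, beside 15.4% of all genes. Cdkn2a was lower in the adult, at 0.0336 against 1.51 CPM, beside 15% of genes. Its adult level is below what 3 UMIs would make. A count of 1 of 5 is near these shares. Cdkn1a (p21), a p53 target, was higher after irradiation, at 876 against 370 CPM, beside 3.05% of genes. Outside the enteroendocrine-like and tuft-like classes Cdkn1a was at 496 CPM after irradiation and 88.6 in the adult. There Cdkn1c (p57), an imprinted inhibitor, was at 468 CPM at E17.5 and 22.1 in the adult. Of the 2 other pocket protein genes, Rbl1 (p107) was lower after irradiation, at 4.18 against 9.88 CPM, and neither passed 2-fold in the other comparisons. Of 9 other E2F and DP genes, 3, 3 and 2 were lower and none at least 2-fold higher. Among cells other than enteroendocrine-like and tuft-like, 3 and 1 of 9 and 3 of 8 were lower. Without Paneth-like and goblet-like cells as well, 1 was lower and 1 at least 2-fold higher in the adult, where 6.71% of all genes were that much higher. E2f3 was at 44.8 CPM at E12.5 and 17.01 at E17.5, and E2f8, a repressive family member, was at 7.29 in adult cells and 0.748 after irradiation.

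The remaining lists are given first over all epithelial cells. There 15.4%, 14.6% and 3.05% of all genes were at least 2-fold higher in the 3 comparisons. Lower by as much were 17.2%, 15% and 5.35% of genes. Without enteroendocrine-like and tuft-like cells the lower shares were 20.4%, 16.4% and 16.5%. Of 7 genes for cyclin D turnover and the Cdk-activating kinase, none passed 2-fold at E17.5 or after irradiation. In the adult 1 was higher, Ambra1, which directs D cyclins to degradation, at 18.9 against 7.77 CPM, and 2 were lower, Ccnh and Cdk7. Without enteroendocrine-like and tuft-like cells Ambra1 was at 6.55 CPM in the adult and 6.67 at E17.5, and Cdk7 was the only one of the 7 past 2-fold. Of 7 genes of the MuvB and B-Myb complex, 3 were lower in the adult and none passed 2-fold in the other comparisons. Leaving out those 2 classes, 1 of 7 was lower in the adult and 2 of 6 after irradiation. Of 7 mitogen-responsive genes, Myc and Fos were at least 2-fold higher and Tcf7 and Mycn lower at E17.5, and in the adult Jun was higher and Mycn and Myc lower. Mycn was at 75.5 CPM at E12.5, 18.6 at E17.5 and 1.35 in the adult, and Myc at 7.58, 22.8 and 9.65. None of these 7 passed 2-fold after irradiation over all epithelial cells.

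Likeness of pattern was measured by Pearson's r of log2(CPM + 1) over 23 sums of library and cell class, among 12199 genes with at least 500 UMIs. The sums share libraries and depth, so r is a description. Cdk4 was most like Fkbp3 (0.979), Snrpd1 (0.978) and Srsf7 (0.975), the last 2 encoding splicing proteins. E2f1 was most like 4930579G24Rik (0.955), Ctps and Cenps (both 0.953), and Rb1 was most like Parp4 (0.960), Znfx1 (0.936) and Furin (0.926). Cdkn1b was nearest to Gripap1 (0.914) and Sugp2 (0.905), and Ccnd3 to Mark1 (0.927), Arl14ep (0.916) and Bend5 (0.908). Ccnd1 was nearest to Pidd1 (0.865), Cdk6 (0.860) and Cd14 (0.843), so that 1 of its 3 nearest genes is a member. Ccnd2 was nearest to Ccdc86 (0.884), Rras2 (0.853) and Plp2 (0.850), Cdk6 to Morc4 (0.898), Rpl12 (0.883) and Efna4 (0.860), and Cdkn2c to Filip1l (0.767), Rgmb (0.738) and Nfix (0.737). Between members, r was 0.883 for Cdk4 and E2f1 and 0.742 for Cdkn1b and Rb1.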

How the data were processed

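The deposited count matrices hold UMI counts per gene and cell barcode, made from 10x 3′ v3 libraries with Cell Ranger 3.1.0 on mm10, per the submitters' processing notes. Cells were required to have 500 genes and no more than 20% mitochondrial UMIs, and putative doublets, at 0.8% per 1000 cells, were removed. Cells were clustered per library with scanpy 1.11.5 and Leiden (2000 variable genes without the 9, 30 components, resolution 1). Clusters were named from fixed marker lists, by naming thresholds revised after the clusters were seen. The 9 genes and all lists were chosen with earlier results of these data known. UMIs were summed per library and class and scaled to 1000000 (CPM). Levels carry exact Poisson and shares exact Clopper-Pearson 95% intervals, and library totals ranged from 38648331 to 90674425 UMIs. Ratios used a pseudocount of 1 CPM and a minimum of 50 UMIs, and no gene was tested between single libraries. Shares of cells used cells thinned to 2000 UMIs, leaving out between 151 and 647 shallower cells per library. The 9 genes are named throughout. Other genes come from the lists. Ratios were checked on simulated Poisson counts, which hold no variation between animals or libraries. Alternatives covered filters, scaling (edgeR 4.0.16 TMM factors), pseudocounts, clustering and thinning.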

Additional observations from a re-analysis of the deposited data

Results flagged for a closer look

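The kinase genes took opposite directions after irradiation in 2 parts of the epithelium, each with 1 library per group, so the difference was not tested. Cdk4 had a log2 ratio of irradiated over unirradiated adult of 0.326 in enteroendocrine-like cells and -0.997 in epithelial cells outside the enteroendocrine-like and tuft-like classes. Cdk6 was at 0.984 in the former and -0.159 in the latter. With Paneth-like and goblet-like cells also left out, a choice made after the values were seen, the latter values were -0.19 for Cdk4 and 0.89 for Cdk6. Cdk6 then went the same way as in enteroendocrine-like cells, so its opposite direction held only with those cells in. In Paneth-like cells Cdk4 was at 71.7 CPM in the adult and 17.8 after irradiation, and Cdk6 at 37.0 and 5.41.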

How the results depend on the processing

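No paired analysis was possible because each group has 1 library. Of 24 ratios between libraries past 2-fold over all epithelial cells, outside the enteroendocrine-like and tuft-like classes or in enteroendocrine-like cells, 12 remained so with a pseudocount of 10 CPM, 19 with a mean over cells and 21 with TMM factors. Among all 68 ratios with enough UMIs, a mean over cells changed the sign of 9. Its largest shift was 1.35 (log2), for Ccnd1 from E17.5 to the adult over all epithelial cells. With a pseudocount of 10 CPM, over all epithelial cells, 0 genes were at least 2-fold higher at E17.5, 1 in adult cells, and 0 lower after irradiation, and the same 3 counts held outside the enteroendocrine-like and tuft-like classes. After irradiation, 2 genes were higher over all epithelial cells by a mean over cells, and 0 were lower by that mean or by the stricter filter of 1000 genes and 10% mitochondrial UMIs. Outside the 2 classes 2 were higher by a mean over cells, by TMM, and without Paneth-like and goblet-like cells, and 1 was lower by TMM. By a mean over cells the Ccnd2 share of D-cyclin UMIs was 50% at E12.5, 52.0% at E17.5, 59.7% in adult cells and 69.1% after irradiation, and the Cdk6 share of kinase UMIs 8.14%, 3.07%, 11.4% and 12%. The stricter filter gave an adult Ccnd2 share of 76.9% and Cdk6 shares of 17.9% in the adult and 21.1% after irradiation. The Cdk6 share was 4.31% over all kept cells at E17.5 and 24.8% over every irradiated barcode. The cycling over non-cycling log2 ratio of E2f1 turned with the setting. At E12.5 it was -0.43 thinned to 4000 UMIs, 0.11 without thinning, -0.79 with at least 5 G2/M UMIs and 0.65 by replication genes. At E17.5 it was -0.23 and 0.46 thinned to 1000 and 4000 UMIs, 1.49 without thinning, 0.51 and -0.24 with at least 2 and 5 UMIs, and 1.43 by replication genes. In the adult it was -0.49 thinned to 1000 UMIs, 2.67 without thinning, -0.25 with at least 5 UMIs and 1.55 by replication genes. After irradiation, thinning to 1000 UMIs, at least 5 UMIs and replication genes left too few cycling cells for a value. The causes of these shifts were not tested. Depth limits Cdkn2c and E2f1 most, with 71 and 96 UMIs over the irradiated epithelial cells.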
